A study of Homo sapiens with 6 samples.

Results

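The genes described here encode the proteins that copy DNA and supply its building blocks. They are the 53 genes on a list of symbols for origin licensing, the replicative helicase, the polymerases, the clamp and its loader, nucleotide synthesis, fork protection and maintenance DNA methylation, and all 53 were found among the 62703 genes of the count table. RNA was sequenced from A549, an established human lung adenocarcinoma cell line, after growth in an S-AlgLung hydrogel (3 libraries) or in an AlgLung hydrogel (3 libraries). The meaning of the S and the culture time in the gels are not in the labels. Nor do they say whether libraries of one hydrogel came from separate cultures, and a p-value here therefore reflects spread among libraries that may be technical. The series title concerns sulfation of the extracellular matrix, and its design text names this single comparison.

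Replication is prepared in G1 phase, when the origin recognition complex marks origins and CDC6 and CDT1 load the MCM helicase onto them. In S phase the kinase CDC7 with DBF4, and the factors MCM10, CDC45 and GINS, turn the loaded helicase into an active one, and polymerases, clamp and ligase follow it. Many of these genes, and those of nucleotide synthesis, are transcribed in a burst at the G1/S boundary under E2F transcription factors, which is why their mRNAs are used as signs of cycling cells.

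In S-AlgLung, 14 of the 52 members that could be tested were called lower and 0 were called higher at an adjusted p under 0.05 (edgeR quasi-likelihood test, Benjamini-Hochberg over all 18544 tested genes). Over all tested genes 1.99% were called lower and 3.15% higher. At an unadjusted p under 0.05, 18 members were lower and 0 higher, and DESeq2 called 16 lower and 0 higher, limma-voom 15 lower and 0 higher. Over all tested genes DESeq2 called 399 lower and 594 higher, and limma-voom 350 lower and 495 higher. The share of all tested genes at an unadjusted p under 0.05 was not computed, so counts at that threshold, here and by step, cannot be set against it. Helicase loading (2 of 3), the MCM helicase (3 of 6), helicase activation (4 of 8) and nucleotide supply (3 of 5) held 12 of the 14 members called by edgeR. The other 2 were CLSPN and UHRF1. No origin recognition, polymerase, primase, clamp, clamp loader, single-strand binding or Okazaki fragment gene was called, and the steps were not tested against each other. The median log2 fold change of the 52 members was -0.41, against 0.03 for all tested genes, and 44 of the 52 were below 0, against 46.6% of all tested genes. In 23 members all 3 S-AlgLung libraries lay below all 3 AlgLung libraries, which held for 8.05% of all tested genes. CDC6, MCM4, MCM10, RRM2 and TK1 were called lower in all 15 alternative fits, and the other 9 called members lost their call in at least 1. In bulk RNA, fewer cells in S phase and less of these mRNAs per cell cannot be told apart.

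**Figure D1:**
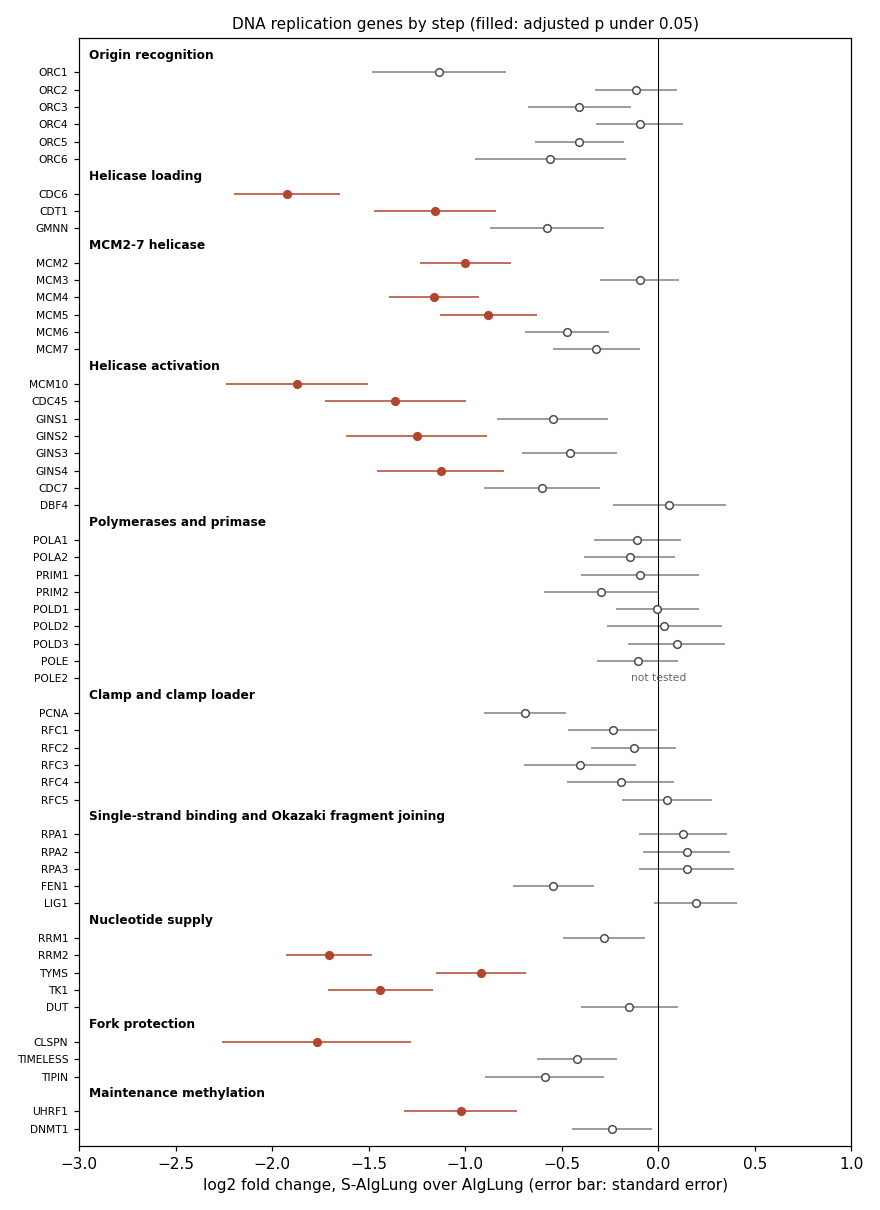
Log2 fold change (S-AlgLung over AlgLung) of the 52 tested members on the x axis, grouped by step down the page, with POLE2 marked as not tested. Points are edgeR estimates, bars their standard errors, filled points the 14 members called lower at an adjusted p under 0.05. The filled points sit in helicase loading, the MCM helicase, helicase activation, nucleotide supply, fork protection and maintenance methylation, while the polymerase estimates lie between -0.30 and 0.10.

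The promoters of 6 members are shown with matches to the motif of the E2F factors, which drive G1/S transcription, marked in them. Each is the RefSeq window (GRCh38.p14) of 250 bases before to 50 after an annotated start, 5′ to 3′ on the gene's strand. Capitals mark matches on either strand to the E2F motif, spelled TTTGGCGC, TTTGCCGC, TTTCGCGC or TTTCCCGC. The first 4 belong to called members, taken by the smallest adjusted p among those with a match whose sequence could be shown. A match was thus required of the called members shown, and these 6 windows do not compare called with uncalled members. Of the called members with a window 7 of 11 held a match, and of the tested members not called 17 of 35. RRM2, with the smallest adjusted p, held none. POLD1 and POLD2, subunits of the lagging-strand polymerase, had the 2 largest adjusted p of the tested members and hold no match.
CDC6: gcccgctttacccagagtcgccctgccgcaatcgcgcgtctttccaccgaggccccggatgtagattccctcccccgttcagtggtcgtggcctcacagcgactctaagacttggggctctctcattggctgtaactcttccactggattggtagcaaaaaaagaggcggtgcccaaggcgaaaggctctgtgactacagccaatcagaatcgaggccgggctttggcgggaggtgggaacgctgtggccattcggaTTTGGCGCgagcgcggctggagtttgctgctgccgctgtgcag
MCM2: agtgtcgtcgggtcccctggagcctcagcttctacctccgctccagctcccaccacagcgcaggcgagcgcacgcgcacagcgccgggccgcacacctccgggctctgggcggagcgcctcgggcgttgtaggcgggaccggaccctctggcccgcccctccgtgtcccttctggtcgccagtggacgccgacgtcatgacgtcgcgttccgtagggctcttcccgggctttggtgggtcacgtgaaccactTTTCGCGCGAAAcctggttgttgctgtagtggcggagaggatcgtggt
TYMS: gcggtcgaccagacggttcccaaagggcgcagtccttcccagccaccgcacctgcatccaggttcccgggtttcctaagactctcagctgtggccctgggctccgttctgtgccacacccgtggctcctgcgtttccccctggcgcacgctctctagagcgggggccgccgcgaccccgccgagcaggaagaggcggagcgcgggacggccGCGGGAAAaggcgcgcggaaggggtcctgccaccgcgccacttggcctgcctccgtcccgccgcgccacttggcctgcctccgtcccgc
CDT1: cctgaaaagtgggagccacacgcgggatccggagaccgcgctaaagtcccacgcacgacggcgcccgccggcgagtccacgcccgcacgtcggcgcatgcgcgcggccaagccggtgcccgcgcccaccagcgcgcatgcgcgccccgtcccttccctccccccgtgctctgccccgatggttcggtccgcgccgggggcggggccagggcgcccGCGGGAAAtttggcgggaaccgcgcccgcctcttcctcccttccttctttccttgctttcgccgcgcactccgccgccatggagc
POLD1: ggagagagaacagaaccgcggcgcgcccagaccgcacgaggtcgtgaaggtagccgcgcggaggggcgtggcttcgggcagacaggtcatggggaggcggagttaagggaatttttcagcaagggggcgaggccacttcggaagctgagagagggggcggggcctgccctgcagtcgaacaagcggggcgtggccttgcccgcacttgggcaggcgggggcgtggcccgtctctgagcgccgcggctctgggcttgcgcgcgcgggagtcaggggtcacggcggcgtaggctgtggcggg
POLD2: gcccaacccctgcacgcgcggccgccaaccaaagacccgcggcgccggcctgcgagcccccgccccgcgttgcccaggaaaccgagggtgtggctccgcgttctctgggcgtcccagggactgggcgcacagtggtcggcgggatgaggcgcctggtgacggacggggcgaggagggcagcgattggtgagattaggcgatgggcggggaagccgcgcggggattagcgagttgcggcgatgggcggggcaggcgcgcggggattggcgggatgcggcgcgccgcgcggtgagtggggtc

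These windows lie at chr17:40287629-40287928 (CDC6), chr3:127598161-127598460 (MCM2), chr18:657403-657702 (TYMS), chr16:88803539-88803838 (CDT1) and chr19:50384073-50384372 (POLD1) on the plus strand, and at chr7:44123499-44123798 (POLD2) on the minus strand. In MCM2 the 2 matches overlap and form a palindrome that reads the same on both strands, from base 3 to base 14 after the start. The matches of CDT1 and TYMS read TTTCCCGC on the minus strand, 28 to 35 and 32 to 39 bases before the start.

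Total counts per library ran between 22978408 and 26495444. The members took 0.0783%, 0.0848% and 0.0798% of the counts in S-AlgLung replicates 1, 2 and 3, against 0.105%, 0.104% and 0.107% in AlgLung replicates 1, 2 and 3. S-AlgLung replicate 3 stood apart from the other libraries on the second principal component of all tested genes (49.2, against -33.4 to 21.8 elsewhere), and 0.0264% of its counts fell on the nuclear RNAs MALAT1 and NEAT1, against 0.00398% to 0.00736% elsewhere. Without it, 18 members were called lower and 0 higher, beside 3.53% of all tested genes lower. Among the 10 members with an exon GC content of at least 55%, this library lay a median of 0.57 log2 units below the other S-AlgLung libraries, and in the other 43 members 0.12 above them. AlgLung replicate 2 deviated the other way, by 0.33 in the 10 GC-rich members and by -0.11 in the other 43. Dropping AlgLung replicate 2 left 5 members called lower, beside 1.28% of all tested genes, and dropping S-AlgLung replicate 1 left 8, beside 1.33%. With offsets for GC content and gene length, chosen after seeing the data, 15 members were called lower, beside 437 of all tested genes.

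Epithelial markers, which cannot tell A549 from other epithelial cells, summed to 4615 to 12320 CPM in S-AlgLung and 10600 to 13980 CPM in AlgLung. Markers of fibroblasts summed to 7.22 to 9.27 CPM in S-AlgLung and 7.62 to 8.05 CPM in AlgLung, with 3 of 6 under 10 counts over all libraries, among them DCN with 1 count. COL3A1 and COL1A1 had 648 and 440 counts in all and were present in every library. Endothelial markers summed to 3.04 to 3.77 CPM in S-AlgLung and 2.34 to 3.68 CPM in AlgLung, and VWF and KDR had 5 and 1 counts in all. PECAM1 and CDH5 had 274 and 177 counts and were present in every library. PECAM1 was higher in every S-AlgLung library but was not called (log2 fold change 0.79, adjusted p = 0.228). Leukocyte markers summed to 42.8 to 70.0 CPM in S-AlgLung and 30.3 to 37.5 CPM in AlgLung, nearly all of it CD14, whereas PTPRC and CD3E were at 0 in every library but S-AlgLung replicate 2, which held 5 and 2 counts. CD14 was itself called higher (log2 fold change 0.85, adjusted p = 0.0225), a call held in 1 of the 6 fits with a library left out, the one that dropped S-AlgLung replicate 3. Of the epithelial markers, whose sum is mostly KRT8 and KRT18, KRT7, which overlaps KRT7-AS on the other strand, was called lower (log2 fold change -1.44, adjusted p = 0.00124), and EPCAM gave 0.97 (adjusted p = 0.0729). The part of these markers in the results was not tested.

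Helicase loading gave the lowest single estimate. CDC6, the ATPase that brings the helicase to ORC (chr17:40287879-40304657, plus strand), stood at 1.63, 1.86 and 1.60 CPM in S-AlgLung replicates 1, 2 and 3, against 6.82, 5.80 and 6.71 CPM in AlgLung replicates 1, 2 and 3. Every S-AlgLung library was far under every AlgLung library, the spread within each hydrogel was small, and the fall was 3.79-fold (log2 fold change -1.92, SE 0.27, adjusted p = 2.845e-05). CDT1, the partner of CDC6 in loading (chr16:88803789-88809258, plus strand), read 5.17, 4.48 and 1.49 CPM in S-AlgLung against 7.01, 10.4 and 7.20 CPM in AlgLung. The groups did not overlap, and S-AlgLung replicate 3 was the lowest library. CDT1 fell by 1.16 on the log2 scale (SE 0.32, adjusted p = 0.0265), but its adjusted p was 0.244 once AlgLung replicate 2 was left out. GMNN, geminin, which binds CDT1 and blocks reloading, had the largest adjusted p of this step. Its values of 1.95, 2.87 and 2.49 CPM in S-AlgLung overlapped the 4.56, 2.79 and 3.56 CPM of AlgLung (log2 fold change -0.58, SE 0.30, adjusted p = 0.367).

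The origin recognition complex, which marks where helicases are loaded, had 0 of 6 subunits called lower, with 1 lower at an unadjusted p under 0.05, 1 by DESeq2 and 1 by limma-voom. All of these single calls were ORC1, whose mRNA in many cells peaks at G1/S. ORC1 stood at 0.997, 1.65 and 0.782 CPM in S-AlgLung against 2.26, 2.698 and 2.57 CPM in AlgLung, without overlap. Its log2 fold change of -1.14 (SE 0.35) had an adjusted p of 0.0530, and 7 of 15 alternatives put it under 0.05, among them the fit that dropped S-AlgLung replicate 2 (adjusted p = 0.0117). The other subunits had log2 fold changes between -0.56 (ORC6) and -0.10 (ORC4). ORC4, the subunit with the largest adjusted p, had 12.5, 12.9 and 12.4 CPM in S-AlgLung against 14.8, 10.0 and 15.6 CPM in AlgLung (log2 fold change -0.10, SE 0.22, adjusted p = 0.918). The 3 S-AlgLung values of ORC4 lay inside the range of the AlgLung values.

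Of the 6 subunits of the MCM helicase ring, MCM4, MCM2 and MCM5 were called lower and MCM3, MCM6 and MCM7 did not pass the test. MCM4 (chr8:47960185-47978160, plus strand) read 6.48, 10.1 and 10.98 CPM in S-AlgLung against 21.4, 18.8 and 21.6 CPM in AlgLung. Its highest S-AlgLung library was well under its lowest AlgLung library, which corresponds to a 2.24-fold fall (log2 fold change -1.16, SE 0.23, adjusted p = 0.00156). MCM2 (chr3:127598410-127622436, plus strand) had 8.93, 11.7 and 6.61 CPM in S-AlgLung against 15.5, 20.7 and 18.2 CPM in AlgLung, with every S-AlgLung library lower (log2 fold change -0.9999, SE 0.24, adjusted p = 0.00824). MCM5 had 12.9, 16.8 and 7.60 CPM in S-AlgLung against 18.5, 27.8 and 22.4 CPM in AlgLung (log2 fold change -0.88, SE 0.25, adjusted p = 0.0352). MCM5 did not overlap between groups either, and for both genes S-AlgLung replicate 3 was the lowest library and AlgLung replicate 2 the highest. Without AlgLung replicate 2, the adjusted p was 0.0856 for MCM2 and 0.241 for MCM5, and that of MCM5 was 0.108 once S-AlgLung replicate 1 was left out. MCM3, the subunit with the largest adjusted p, had 25.1, 28.6 and 28.7 CPM in S-AlgLung against 29.2, 27.6 and 31.3 CPM in AlgLung (log2 fold change -0.10, SE 0.21, adjusted p = 0.907). MCM6 did not overlap between groups but gave -0.47 (SE 0.22, adjusted p = 0.298), and MCM7 gave -0.32 (SE 0.23, adjusted p = 0.580).

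Helicase activation held 4 called members. MCM10, which helps the loaded helicase start unwinding (chr10:13161558-13211110, plus strand), read 0.499, 0.718 and 0.604 CPM in S-AlgLung against 2.22, 2.34 and 2.15 CPM in AlgLung. Its groups stood far apart at a low level, 11 to 17 counts per S-AlgLung library against 52 to 58 per AlgLung library, and the fall was 3.66-fold (log2 fold change -1.87, SE 0.37, adjusted p = 0.00143). CDC45, a part of the active helicase, had 1.04, 0.845 and 0.604 CPM in S-AlgLung against 1.76, 2.43 and 2.19 CPM in AlgLung (log2 fold change -1.36, SE 0.36, adjusted p = 0.0221). Its adjusted p was 0.116 without AlgLung replicate 2 and 0.0679 without AlgLung replicate 3. GINS2 and GINS4 belong to the GINS complex, which binds CDC45 to the MCM ring. GINS2 read 0.861, 2.87 and 0.924 CPM in S-AlgLung against 3.30, 3.55 and 4.22 CPM in AlgLung, and S-AlgLung replicate 2 was close to the AlgLung range (log2 fold change -1.25, SE 0.37, adjusted p = 0.0403). GINS4 read 0.997, 1.44 and 2.45 CPM in S-AlgLung against 3.18, 3.28 and 4.35 CPM in AlgLung (log2 fold change -1.13, SE 0.33, adjusted p = 0.0402). Dropping S-AlgLung replicate 2 changed the GINS2 estimate to -2.04 (adjusted p = 7.74e-05), while dropping S-AlgLung replicate 1 or any AlgLung replicate ended its call. GINS4 was called in 1 of the 6 fits that left out a library, the one that dropped S-AlgLung replicate 3. Both calls were lost in 6 of 15 alternatives, and both genes share ground with a busier gene on the opposite strand. GSE1 had 24.1 times the counts of GINS2 and GPAT4-AS1 6.73 times those of GINS4, and whether reads were counted by strand is not known here.

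The other activation genes did not pass the test. GINS1 gave a log2 fold change of -0.55 (adjusted p = 0.385) and was called lower without S-AlgLung replicate 3 (-0.85, adjusted p = 0.0469), while GINS3 gave -0.46 (adjusted p = 0.3997). The kinase gene CDC7 gave -0.60 (SE 0.30, adjusted p = 0.352). DBF4, the activating subunit of that kinase, had 3.54, 2.32 and 4.76 CPM in S-AlgLung against 3.91, 2.83 and 3.48 CPM in AlgLung. Its S-AlgLung values spanned the whole AlgLung range, and the difference was 0.06 (SE 0.29, adjusted p = 0.970).

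**Figure D2:**
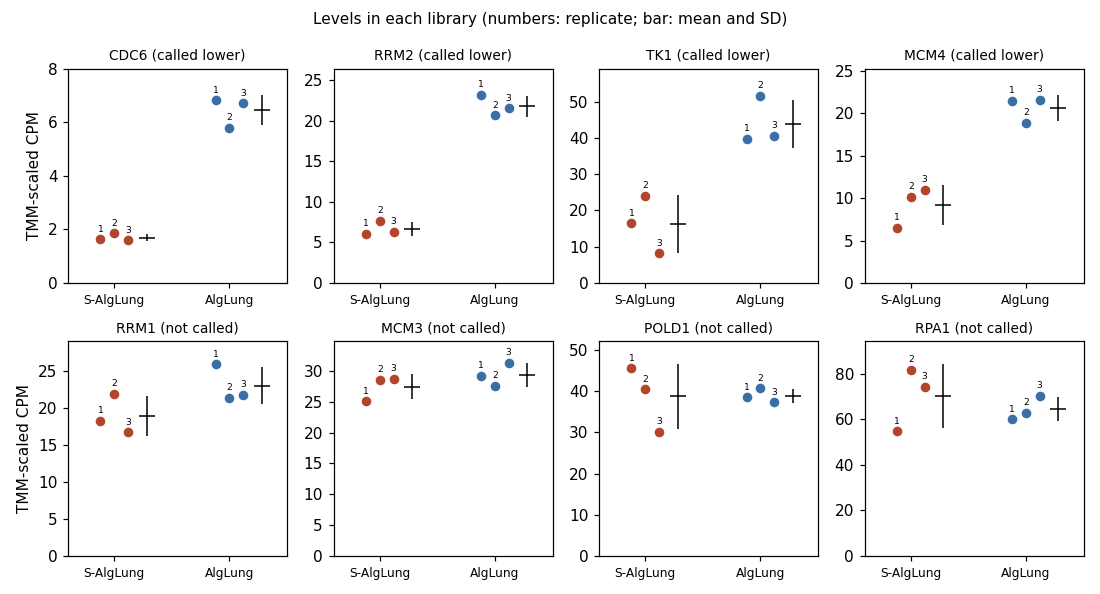
TMM-scaled CPM of 8 members in each library, S-AlgLung left and AlgLung right in every panel, with points numbered by replicate and bars for mean and SD (n = 3 each). CDC6, RRM2, TK1 and MCM4 (top row) do not overlap between hydrogels, and RRM1, MCM3, POLD1 and RPA1 (bottom row) do.

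Nucleotide supply summed to 63.8, 77.9 and 77.0 CPM in S-AlgLung against 132.3, 134.2 and 123.8 CPM in AlgLung over its 5 genes. RRM2, the small subunit of ribonucleotide reductase, whose mRNA and protein rise in S phase (chr2:10120698-10211725, plus strand), had the smallest adjusted p of all members. It stood at 6.08, 7.64 and 6.29 CPM in S-AlgLung against 23.2, 20.6 and 21.5 CPM in AlgLung. The spread within each hydrogel was small beside the gap, and RRM2 fell 3.26-fold (log2 fold change -1.71, SE 0.22, adjusted p = 8.601e-06). TK1, the cytosolic thymidine kinase of cycling cells (chr17:78174091-78187233, minus strand), had 16.4, 24.1 and 8.17 CPM in S-AlgLung against 39.7, 51.6 and 40.6 CPM in AlgLung. All S-AlgLung libraries were lower, replicate 3 the lowest, and TK1 fell 2.71-fold (log2 fold change -1.44, SE 0.27, adjusted p = 0.000854). TYMS, thymidylate synthase (chr18:657653-673578, plus strand), had 6.53, 8.78 and 11.2 CPM in S-AlgLung against 16.7, 15.9 and 17.6 CPM in AlgLung (log2 fold change -0.92, SE 0.23, adjusted p = 0.0135). TYMS missed the threshold when AlgLung replicate 2 was dropped (adjusted p = 0.0554) or S-AlgLung replicate 1 was dropped (adjusted p = 0.115). ENOSF1, which lies across it on the other strand, collected 1.96 times as many reads.

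RRM1, the large ribonucleotide reductase subunit, overlapped between groups, with 18.3, 22.0 and 16.7 CPM in S-AlgLung against 25.9, 21.4 and 21.8 CPM in AlgLung (log2 fold change -0.28, SE 0.21, adjusted p = 0.623). DUT, the dUTPase that keeps uracil out of DNA, had 16.5, 15.4 and 34.7 CPM in S-AlgLung against 26.9, 24.8 and 22.3 CPM in AlgLung. Its S-AlgLung libraries disagreed: replicates 1 and 2 were under every AlgLung library and replicate 3 above all of them. DUT gave -0.15 over all 6 libraries (SE 0.25, adjusted p = 0.878) but -0.66 when its outlying replicate 3 of S-AlgLung was dropped (adjusted p = 0.0305).

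The polymerases and primase, which make the primers and the new strands, had 0 of 8 tested members called, 0 at an unadjusted p under 0.05, 0 by DESeq2 and 0 by limma-voom. Their log2 fold changes ran from -0.30 (PRIM2) to 0.10 (POLD3) with standard errors of 0.21 to 0.30, and all 8 overlapped between groups. POLD1, the catalytic subunit of polymerase delta, had 45.6, 40.5 and 30.2 CPM in S-AlgLung against 38.5, 40.8 and 37.4 CPM in AlgLung. The AlgLung values of POLD1 lay inside its S-AlgLung range (log2 fold change -0.00, SE 0.22, adjusted p = 0.998). POLD2, the accessory subunit, had 280.4, 257.1 and 100.2 CPM in S-AlgLung against 167.8, 254.4 and 201.4 CPM in AlgLung, and S-AlgLung replicate 3 was the lowest of the 6 libraries. POLE, the leading-strand polymerase, gave -0.11 (SE 0.21, adjusted p = 0.900), and POLA1, the primer-extending polymerase alpha, gave -0.11 (SE 0.23, adjusted p = 0.907).

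POLE2, a subunit of polymerase epsilon, was the member with too few counts to test. It had 3, 9 and 5 counts in S-AlgLung libraries against 12, 8 and 34 in AlgLung libraries, 71 in all. Both hydrogels overlapped, and AlgLung replicate 3 held 34 of the 71. Where other filters or library sets let it be tested its log2 fold change was between -2.20 and -1.43, and it was called only without S-AlgLung replicate 2 (adjusted p = 0.0309).

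PCNA, the sliding clamp that ties polymerases to DNA (chr20:5114953-5126626, minus strand), read 25.2, 25.97 and 33.3 CPM in S-AlgLung against 42.7, 46.0 and 47.5 CPM in AlgLung. The groups did not overlap and the log2 fold change was -0.69 (SE 0.21), but its adjusted p of 0.0542 missed the threshold, and 6 of 15 alternatives put it below, among them the fit that dropped S-AlgLung replicate 3 (adjusted p = 0.00167). PCNA was the 1 member of its step lower at an unadjusted p under 0.05 and by DESeq2, while edgeR and limma-voom called 0 of 6. The 5 genes of the clamp loader RFC ranged from -0.41 (RFC3) to 0.04 (RFC5). RFC5, with the largest adjusted p, had 8.34, 11.3 and 14.4 CPM in S-AlgLung against 10.96, 11.5 and 10.6 CPM in AlgLung (log2 fold change 0.04, SE 0.23, adjusted p = 0.972). Its S-AlgLung values spread on both sides of the AlgLung values.

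Single-strand binding and Okazaki fragment joining was the step with a median above 0 (0.15), and 0 of its 5 genes were called by edgeR, DESeq2 or limma-voom, with 1 lower and 0 higher at an unadjusted p under 0.05. RPA1, RPA2 and RPA3, which coat single strands, gave 0.13, 0.15 and 0.15. RPA1, with the largest adjusted p, had 54.8, 81.8 and 74.3 CPM in S-AlgLung against 59.99, 62.9 and 70.2 CPM in AlgLung (log2 fold change 0.13, SE 0.23, adjusted p = 0.885). LIG1, the ligase that seals the fragments, gave 0.19 (SE 0.22, adjusted p = 0.780). FEN1, the flap nuclease that trims them, was the exception of this step with 12.6, 12.3 and 15.0 CPM in S-AlgLung against 19.8, 19.1 and 19.4 CPM in AlgLung. FEN1 did not overlap between groups but missed the threshold (log2 fold change -0.54, SE 0.21, adjusted p = 0.183), which it passed once S-AlgLung replicate 3 was dropped (adjusted p = 0.0300). FADS2, which covers it in the same orientation, drew 56.6 times as many reads.

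At the fork itself, CLSPN, claspin, an adaptor of the replication checkpoint, read 0.317, 1.01 and 0.142 CPM in S-AlgLung against 2.26, 1.03 and 1.66 CPM in AlgLung. S-AlgLung replicate 2 and AlgLung replicate 2 nearly touched, at 24 and 23 counts, and the log2 fold change was -1.77 (SE 0.49, adjusted p = 0.0290). The estimate for CLSPN moved widely with single libraries. It was -2.87 (adjusted p = 0.00012) when S-AlgLung replicate 2 was dropped and -1.33, still called, when S-AlgLung replicate 3 was. CLSPN missed the threshold at -1.51 when AlgLung replicate 1 was dropped (adjusted p = 0.210), at -2.01 for AlgLung replicate 2 (adjusted p = 0.0774) and at -1.56 for S-AlgLung replicate 1 (adjusted p = 0.181). With no library dropped, it also missed the threshold under the GC and length offsets (-1.72, adjusted p = 0.122). TIMELESS and TIPIN, which form the fork protection complex, did not overlap between groups and did not pass, with log2 fold changes of -0.42 (adjusted p = 0.345) and -0.59 (adjusted p = 0.390). TIPIN, with the largest adjusted p, had 1.81, 1.52 and 2.13 CPM in S-AlgLung against 2.42, 2.56 and 3.27 CPM in AlgLung.

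UHRF1, which binds hemimethylated DNA behind the fork and recruits DNMT1, had 2.22, 1.69 and 2.17 CPM in S-AlgLung against 5.10, 3.91 and 3.35 CPM in AlgLung. The groups did not overlap and UHRF1 fell 2.03-fold (log2 fold change -1.02, SE 0.29, adjusted p = 0.0358). Its adjusted p was 0.179 when AlgLung replicate 1 was dropped, 0.0953 for AlgLung replicate 2, 0.0820 for S-AlgLung replicate 1 and 0.108 for S-AlgLung replicate 2. With no library dropped, UHRF1 also missed the threshold under scaling by total counts (adjusted p = 0.0643). DNMT1, the maintenance methyltransferase, overlapped between groups, with 27.7, 32.4 and 27.2 CPM in S-AlgLung against 37.8, 32.8 and 32.4 CPM in AlgLung (log2 fold change -0.24, SE 0.21, adjusted p = 0.688).

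Levels per kilobase of exon (RPKM, from TMM-scaled CPM and the exon length in the count table) differed between the parts of one machine. Gaps between genes depend on that length, which may not be that of the mRNA made here. It is 4386 bases for MCM7 and 9852 for MCM4, which averaged 65.3 and 20.6 CPM in AlgLung. MCM7 and POLD3 also share ground with another gene, as described below. Among the MCM subunits, MCM7 averaged 11.9 ± 1.77 RPKM in S-AlgLung and 14.9 ± 2.73 RPKM in AlgLung (SD, n = 3 each). MCM4, in the same ring, averaged 0.934 ± 0.243 RPKM in S-AlgLung and 2.09 ± 0.16 RPKM in AlgLung. Among polymerase delta subunits, POLD2 averaged 26.6 ± 12.3 RPKM in S-AlgLung and 25.96 ± 5.46 RPKM in AlgLung, while POLD3 averaged 1.35 ± 0.23 RPKM in S-AlgLung and 1.26 ± 0.37 RPKM in AlgLung. PCNA averaged 20.1 ± 3.17 RPKM in S-AlgLung and 32.4 ± 1.75 RPKM in AlgLung, where it was the most abundant member per kilobase. Of the ORC subunits, ORC2 was highest (2.91 ± 0.17 RPKM in S-AlgLung, 3.15 ± 0.41 RPKM in AlgLung), and ORC6 lowest (0.230 ± 0.108 RPKM in S-AlgLung, 0.343 ± 0.085 RPKM in AlgLung). The 14 members called lower had a median level of 1.65 RPKM in AlgLung, against 2.23 RPKM for the 38 tested members not called and 3.01 RPKM for all tested genes.

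**Figure D3:**
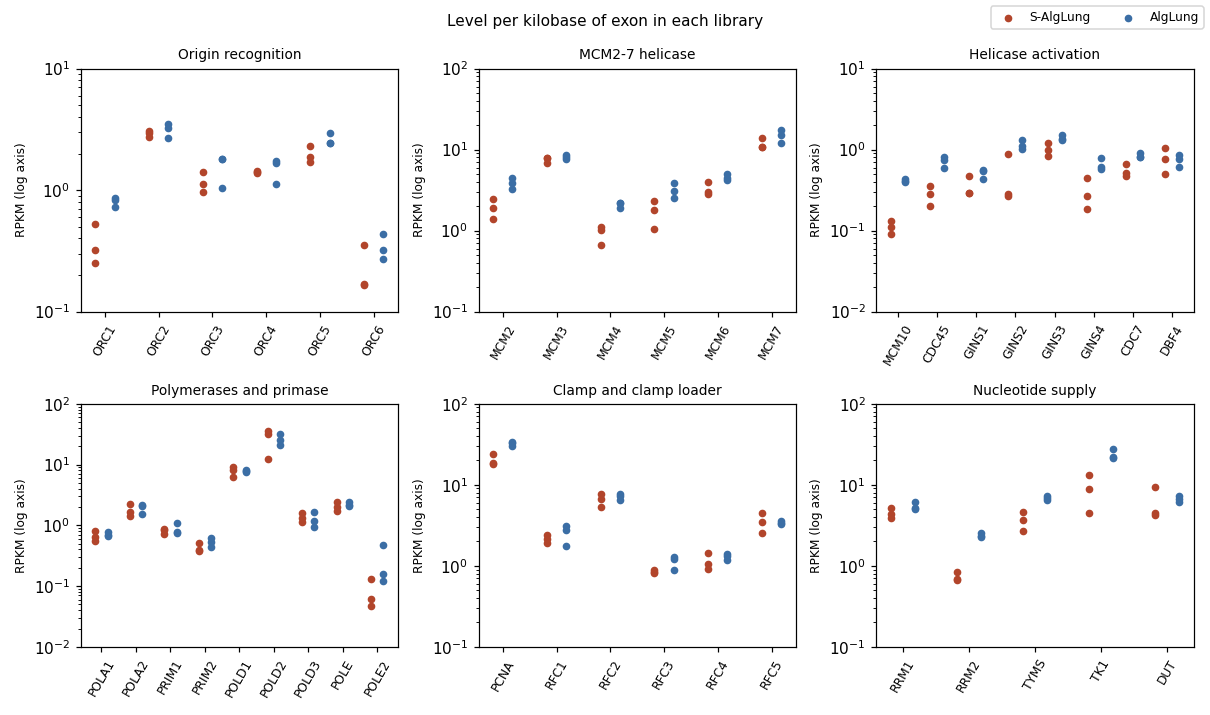
RPKM (log axis) in each library for the subunits of 6 steps, S-AlgLung points left of AlgLung points for every gene. Subunits of one complex stand at unlike levels by this measure, which depends on the exon length in the count table. For example, MCM7 and MCM4 averaged 11.9 and 0.934 RPKM in S-AlgLung and 14.9 and 2.09 RPKM in AlgLung.

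Ratios of paired genes within a library do not depend on library scaling, and 8 pairs were compared with the exact two-sided permutation test over the 6 libraries, whose smallest possible p is 0.1. The pairs were chosen with earlier results of these data known, so a separation here is a description and not independent support. Ratios of other gene pairs were not computed. The log2 ratio of RRM2 to RRM1 was -1.59, -1.52 and -1.41 in S-AlgLung against -0.16, -0.05 and -0.02 in AlgLung, a difference of -1.43 (exact p = 0.1, Benjamini-Hochberg adjusted 0.2 over the 8 pairs). The 3 ratios of each hydrogel lay close together, with a wide gap between the hydrogels. Ratios also did not overlap for ORC1 to ORC4 (difference -1.12), RRM2 to RRM2B, its p53-controlled relative (-0.89), and UHRF1 to DNMT1 (-0.76), each with exact p = 0.1 and adjusted 0.2. Ratios overlapped for CDT1 to its inhibitor GMNN (-0.74, exact p = 0.5), and S-AlgLung replicates spanned 1.40, 0.64 and -0.73 there against 0.62, 1.90 and 1.01 in AlgLung. CDT1 and GMNN differ in exon GC content (64.9% and 43.6%), and a ratio does not cancel deviations between libraries that follow GC content. The part of GC content in this ratio was not tested. GINS2 to GINS3 (-0.99), POLE2 to POLE (-1.35) and DBF4 to CDC7 (0.61) overlapped as well, each with exact p = 0.2.

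**Figure D4:**
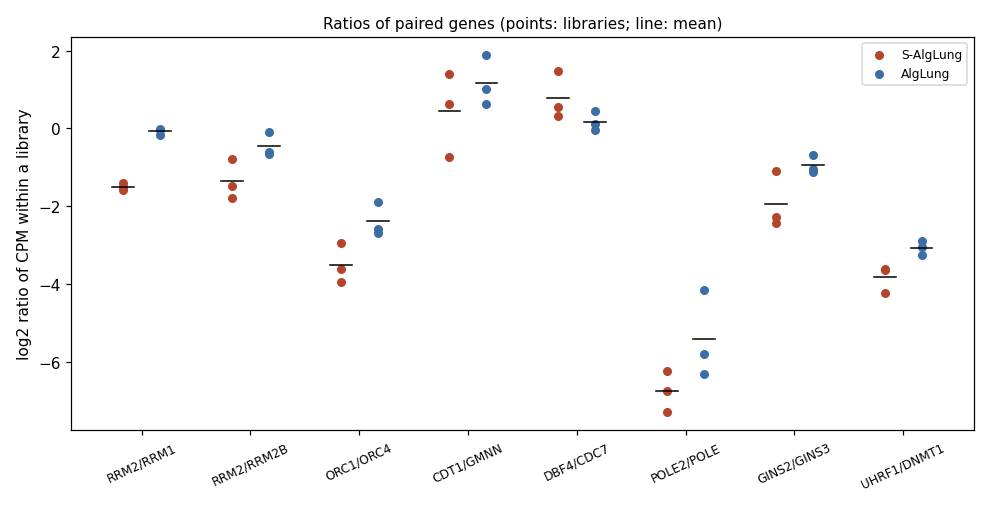
Log2 ratio of CPM of 2 genes within a library on the y axis, for 8 pairs, S-AlgLung points left of AlgLung points, with lines at the means (n = 3 each). The RRM2 to RRM1 ratios of the hydrogels are separated by more than 1 log2 unit, from -1.41 downward in S-AlgLung and from -0.16 upward in AlgLung.

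A further 51 genes that act around the fork or at its start were listed, chosen with earlier results known. All 51 were tested, and 14 were called lower and 0 higher, beside 1.99% and 3.15% of all tested genes. At an unadjusted p under 0.05, 18 were lower and 1 higher, and the share of all tested genes at that threshold was not computed. DESeq2 called 13 lower and limma-voom 14, with 0 higher by either. The median log2 fold change of the 51 was -0.32, with 39 below 0 and 12 above, against 46.6% of all tested genes below 0. Of 17 G1/S regulators, 7 were called lower and 13 were below 0. E2F1, an activating E2F factor, had 5.94, 5.41 and 2.24 CPM in S-AlgLung against 12.3, 13.3 and 12.3 CPM in AlgLung (log2 fold change -1.49, SE 0.28, adjusted p = 0.000796). E2F7, a repressing E2F, fell by 2.29 at 3 to 6 counts per S-AlgLung library against 12 to 47 per AlgLung library (adjusted p = 0.00832). AlgLung replicate 1 held the 47, and E2F7 gave -1.60 (adjusted p = 0.206) once it was dropped, while dropping S-AlgLung replicate 1 gave an adjusted p of 0.0758. The S-phase cyclin gene CCNA2 fell by 1.55 (adjusted p = 0.00222). CDKN1A, the p21 inhibitor of cyclin-dependent kinases, fell too, with 80.0, 87.1 and 61.6 CPM in S-AlgLung against 124.4, 181.6 and 182.3 CPM in AlgLung (log2 fold change -1.09, SE 0.25, adjusted p = 0.00498, and 0.0635 once AlgLung replicate 2 was dropped).

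Among helicase activation factors 2 of 9 were called lower and 7 were below 0. The called genes were RECQL4, which fell by 1.01 (adjusted p = 0.00821), and TICRR, which recruits CDC45 and fell by 0.96 (adjusted p = 0.0270). RECQL4 missed the threshold when AlgLung replicate 2 was dropped (adjusted p = 0.0808), and TICRR was called in 2 of the 6 fits with a library left out, those that dropped S-AlgLung replicate 2 or 3. Of 7 further polymerase and clamp-loader genes, DSCC1, of the alternative loader, fell by 2.06 (adjusted p = 0.00927) at 2 to 9 counts per S-AlgLung library against 18 to 31 per AlgLung library. Its adjusted p was 0.0564 once AlgLung replicate 1 was dropped and 0.0922 once S-AlgLung replicate 1 was. ATAD5, which unloads PCNA, gave -1.16 (adjusted p = 0.106). DNA2, a nuclease for long flaps, was the 1 of 5 primer removal and topology genes called lower (log2 fold change -1.71, adjusted p = 0.00491), and 3 were below 0. In nucleotide supply 2 of 8 further genes were called lower and 6 were below 0. RRM2B, 1 of the 2, fell by 0.83 (adjusted p = 0.0312), with 21.0, 13.2 and 17.6 CPM in S-AlgLung against 36.8, 22.2 and 32.9 CPM in AlgLung. The adjusted p of RRM2B was 0.169 once AlgLung replicate 1 was dropped, 0.0945 for AlgLung replicate 3 and 0.141 for S-AlgLung replicate 2. The histone chaperone ASF1B was the 1 of 5 chromatin assembly genes called lower (log2 fold change -1.78, adjusted p = 8.9e-05), though all 5 were below 0. CHAF1A gave -0.64 (adjusted p = 0.153). MKI67, the proliferation marker Ki-67, read 7.07, 12.2 and 4.98 CPM in S-AlgLung against 37.1, 22.3 and 28.4 CPM in AlgLung (log2 fold change -1.86, adjusted p = 3.9e-05).

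Promoters were compared for the motif shown above. RefSeq windows were matched for 47 of the 53 members, and not for MCM4, MCM5, POLD3, RPA2, RPA3 and GINS4. A match to the 8-letter motif was found for 25 of the 47 (53.2%), against 3.99% of the 27305 genes with a window and 6.37% of the 11783 tested genes with one. Of the called members with a window 7 of 11 (63.6%) held a match, and of the tested members not called 17 of 35 (48.6%). By step, a match was found in 3 of 3 helicase loading genes, 4 of 4 MCM genes, 4 of 7 activation genes, 4 of 8 polymerase and primase genes, 2 of 6 clamp and clamp loader genes and 1 of 6 ORC genes. It was found in 2 of 5 nucleotide supply genes, 1 of 3 single-strand binding and Okazaki fragment genes, 2 of 3 fork protection genes and 2 of 2 maintenance methylation genes. RRM2, TK1 and MCM10, called in all 15 alternative fits, had no 8-letter match in their windows, and uncalled MCM6 had 4. With a 7-letter core that lacks the first T, RRM2 and TK1 each had 1 match and MCM10 had 0. A match is a description of letters and not a binding site.

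**Figure D5:**
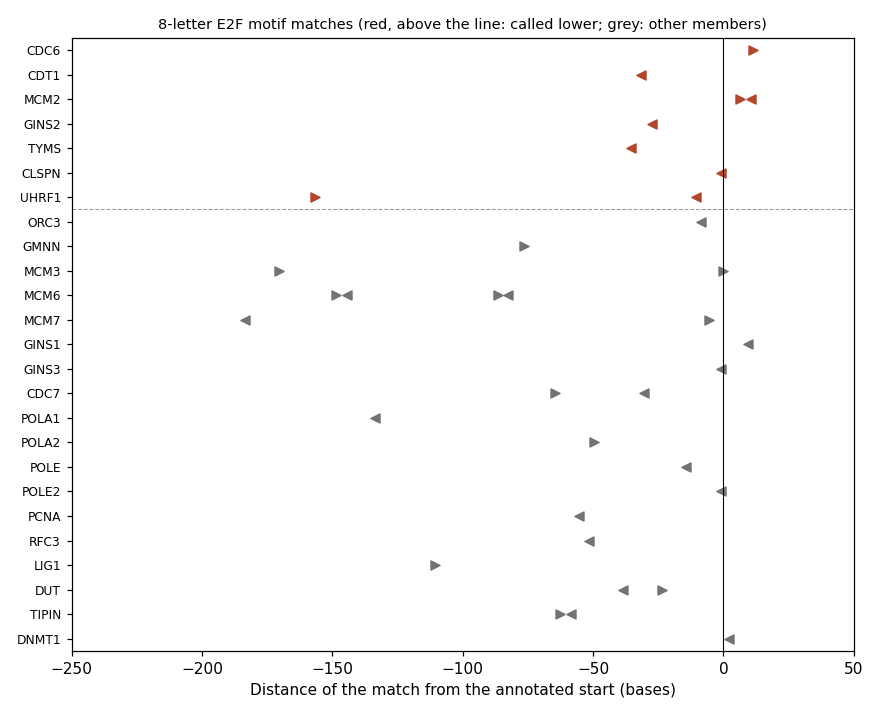
Position of each 8-letter E2F motif match relative to the annotated start (x axis, in bases), for the 25 members with a match, arrowheads giving the strand. The 7 members called lower are above the dashed line and the other 18 below it, and matches lie at positions -187 to 15 relative to the start.

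Counts of some members may hold reads of a neighbour. For 17 members another gene lies across the same ground with 25% or more of the member's own counts, which leaves their values uncertain. The overlap is on the same strand for FEN1, POLA2, POLD3 and PRIM1, and on the other strand for DBF4, DUT, GINS1, GINS2, GINS3, GINS4, MCM2, MCM7, ORC4, RFC4, RFC5, RPA3 and TYMS. Of the 14 called members, GINS2, GINS4, MCM2 and TYMS are among them. CDC6, CDT1, MCM4, MCM5, MCM10, CDC45, RRM2, TK1, CLSPN and UHRF1 are not. Of the other replication genes named above, TICRR, CCNA2 and CHAF1A overlap such a gene on the other strand.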

How the data were processed

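RNA sequencing covered 3 S-AlgLung and 3 AlgLung libraries of A549 cells. Per the submitters' processing notes, STAR 2.7.3a was the aligner, GRCh38 the genome and featureCounts the counter, with its version, strand setting and gene annotation not given in the sources. The table deposited by the authors holds raw whole-number read counts per gene and each gene's exon length. A repeated column of AlgLung replicate 1 differed in 0 genes and was used once. Between libraries of one hydrogel, chi-square per degree of freedom was 18.3 to 127.1, above sampling noise.

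Low-count genes were removed with filterByExpr (minimum count 10), which kept 18544 genes. After TMM scaling, edgeR 4.0.16 (R 4.3.3) fitted all 6 libraries without a block, with a biological coefficient of variation of 0.215, and its quasi-likelihood F test gave p-values for Benjamini-Hochberg adjustment across every tested gene. The threshold was an adjusted p of 0.05. Fold changes on the log2 scale are S-AlgLung relative to AlgLung, and a standard error is the absolute log2 value divided by the root of F. Depth was 22978408 to 26495444 counts, and precision is lowest near 1 CPM. Pair ratios used a prior count of 0.5.

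Alternative fits changed the scaling (DESeq2 size factors, upper quartile, total counts), the tool (Wald test of DESeq2 1.42.0, voom in limma 3.58.1), the filter (none, or an average of 1 CPM), the model (replicate block), the library set (1 left out) or the threshold (0.01). GC and length offsets (loess span 0.3, GC known for 96.2% of tested genes) were added after seeing the data. The 53 members, the 51 other genes, the pairs and the motif were chosen with earlier results of these data known. In each step, values per library are given for called members and for the tested member with the largest adjusted p; other genes are named by the smallest p in their list, up to 4, or by name. Some listed genes are not reported here by name. ORC1, POLD2, PCNA, FEN1, RRM1 and POLE2 are given in full as a choice made after their values were seen.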

Additional observations from a re-analysis of the deposited data

How the results depend on the processing

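The number of members called lower was 14 with all libraries and 12 to 16 under the other scalings, tests and filters (12 with total counts, 16 with upper-quartile factors and with the DESeq2 Wald test, 15 with the GC and length offsets). It was 6 at an adjusted p under 0.01. Leaving out 1 library at a time gave 5 to 18, namely 5 when AlgLung replicate 2 was dropped, 8 for S-AlgLung replicate 1 and 18 for S-AlgLung replicate 3; the cause was not tested. The number called higher was 0 in every one of these fits. The median log2 fold change of the members ran from -0.51 with total counts to -0.35 without S-AlgLung replicate 1. Scaling by total counts put the median of all tested genes at -0.07, against 0.03 with TMM, and left 4 members above 0 (LIG1, RPA1, RPA2 and RPA3) in place of 8. The 51 other replication genes had 14 called lower with all libraries, 8 at an adjusted p under 0.01, and 7 to 15 with 1 library left out. Of all tested genes, 369 were called lower and 584 higher; total counts gave 333 higher, an adjusted p under 0.01 gave 217 lower and 323 higher, and leaving out 1 library gave 244 (AlgLung replicate 2) to 662 (S-AlgLung replicate 3) lower and 289 (AlgLung replicate 1) to 891 (S-AlgLung replicate 3) higher, with 307 and 326 higher for AlgLung replicates 2 and 3. Over the 52 tested members and 15 alternative fits each, a call was lost 29 times and gained 17 times, and no called member changed direction. The promoter match was found in 25 members with the 8-letter motif and in 36 of 47 (76.6%) with the 7-letter core. That core was found for 15.3% of all genes with a window and 23.9% of the tested genes with one. It was found for 9 of 11 called members (81.8%) and 26 of 35 tested members not called (74.3%). The differences of the 8 pair ratios kept their sign with each library left out, but not their size: CDT1 to GMNN (-0.74) became -0.16 without S-AlgLung replicate 3, -0.38 without AlgLung replicate 2 and -1.22 without S-AlgLung replicate 1, DBF4 to CDC7 (0.61) became 0.27 without S-AlgLung replicate 3, and POLE2 to POLE (-1.35) became -0.72 without AlgLung replicate 3.

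Replicate numbers were not shown to pair the libraries: deviations of same-numbered libraries correlated at 0.07, 0.29 and 0.04. With the replicate number as a block 16 members were called lower and 0 higher, and ORC1 and PCNA were among the 16. Calls over all tested genes also rose with the block, to 500 lower and 800 higher, from 369 and 584 without it. Depth limits the members near 1 CPM in S-AlgLung, among them CLSPN, MCM10, CDC45 and POLE2, whose estimates rest on few reads.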
